A study of Mus musculus with 6 samples.

Results

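The barcodes described here were called cells in both receptor tables of the same mouse, the B cell table and the T cell table. There were 373 such barcodes in the 564Igi mouse and 345 in the wild-type mouse, 718 of the 18894 barcodes called in either table. They are named double-called below, and barcodes called in only 1 table are named B-only or T-only. The spleen of 1 heterozygous 564Igi mouse and of 1 wild-type C57BL/6JRj mouse (WT) was studied, with 1 B cell and 1 T cell receptor library from each. The 564Igi line carries the Ightm1(Igh564)Tik allele at the heavy chain locus and the Igktm1(Igk564)Tik allele at the kappa light chain locus on a B6.129S4(Cg) background, per the labels. Total splenocytes of both mice passed a magnetic negative selection with Ter-119, an erythroid marker, and were then separated on the 10x Chromium system for 5′ V(D)J sequencing. The lineage of a barcode rests here on its receptor contigs alone, since the gene expression data were not analysed here.

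A mature B cell carries an immunoglobulin receptor of paired heavy and light (kappa or lambda) chains, and an alpha-beta T cell carries a receptor of paired alpha and beta chains. Each chain is assembled from V, J and, for heavy and beta chains, D segments, and the junction, called the CDR3, varies most between cells. In an unmanipulated repertoire, heavy and beta chain junctions seldom recur outside a clone, whereas some light chain junctions arise in many unrelated cells. Allelic exclusion keeps most lymphocytes to 1 productive heavy or beta chain, whereas alpha chains are excluded less strictly. A barcode marks a droplet, and the number of cells behind it cannot be told from receptor tables.

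A chain was counted when its contig was productive, flagged high-confidence and supported by at least 2 unique molecular identifiers (UMIs), each of which tags 1 captured RNA molecule. The primary chain of a locus was the one with most UMIs. The B cell tables held 747499 UMIs in 564Igi and 927382 in WT, and the T cell tables held 114433 UMIs in 564Igi and 86409 in WT. Double-called barcodes held 10.6% of the B cell table's UMIs and 8.49% of the T cell table's in 564Igi, and 4.44% and 9.42% in WT. Barcodes with at least 1000 B cell receptor UMIs, 6 in 564Igi and 1 in WT, held 70.7% and 31.8% of the double-called UMIs in the B cell tables. Without all called barcodes of that depth the double-called share of those tables was 8.13% in 564Igi and 4.69% in WT. With 1 mouse per genotype no test between mice or conditions was possible, and the 95% intervals given in brackets (exact binomial for shares, built from them for differences) cover counting error between barcodes only. Barcodes of 1 library share its preparation, so mouse, genotype and library cannot be told apart.

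The sequences below show what such a barcode holds. They are CDR3 nucleotides from the deposited contigs, 5′ to 3′, with the first and last codon in capitals, which code for the conserved cysteine and the closing tryptophan or phenylalanine. The first pair were the most common heavy and light chains of 564Igi B-only barcodes and are called the candidate knock-in chains, because the labels give no knock-in sequence. A chain other than the candidate is any chain with a different CDR3, so it may still hold part of the candidate's sequence.
Candidate heavy chain, IGHV1-53 IGHJ4: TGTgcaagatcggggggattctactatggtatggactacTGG
Candidate light chain, IGKV4-59 IGKJ5: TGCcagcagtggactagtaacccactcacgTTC
In 1 564Igi double-called barcode the candidate heavy chain had 16 UMIs and the candidate light chain 22, beside an alpha chain with 4 UMIs and a beta chain with 5.
TRAV14D-2 TRAJ31: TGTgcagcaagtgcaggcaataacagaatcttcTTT
TRBV12-2+TRBV13-2 TRBJ2-5: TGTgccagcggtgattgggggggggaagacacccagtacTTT
A WT barcode chosen in the same way held a heavy chain with 14 UMIs, a kappa chain with 26, an alpha chain with 17 and a beta chain with 18, each found in no other barcode of that mouse.
IGHV1-75 IGHJ3: TGTgcaagatcttcgtttgcttacTGG
IGKV14-100 IGKJ5: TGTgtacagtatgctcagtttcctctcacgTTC
TRAV7-2 TRAJ22: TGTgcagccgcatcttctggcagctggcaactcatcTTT
TRBV16 TRBJ1-4: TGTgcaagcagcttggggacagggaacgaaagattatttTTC
Both were chosen as the barcodes with 1 chain of each kind whose heavy chain UMIs were nearest the median. Apart from the need for exactly 1 alpha and 1 beta chain, their T cell chains played no part in the choice. The 17 alpha chain UMIs of the WT barcode lie above 14, the 95th percentile of WT T-only barcodes. In the RefSeq gene table of GRCm38.p6, IGHV1-53 lies at chr12:115158445-115158835 and IGKV4-59 at chr6:69438218-69438741.

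Double-called barcodes made up 8.88% (8.04 to 9.78) of the B cell calls and 7.54% (6.82 to 8.31) of the T cell calls in 564Igi, and 5.03% (4.53 to 5.57) and 9.56% (8.62 to 10.6) in WT. Barcode sequences were also compared between the libraries of different mice. Of the 564Igi B cell calls, 20 of 4200 (0.476%) were also T cell calls in WT, and of the WT B cell calls, 48 of 6858 (0.700%) were also T cell calls in 564Igi. Both shares were below those within a mouse. Between the mice, 38 barcodes were B cell calls in both and 29 were T cell calls in both. Of the double-called barcodes, 12 of 373 in 564Igi and 1 of 345 in WT were also called in a table of the other mouse, and none was double-called in both, a count of 0 that allows up to 0.804% of the 564Igi ones.

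Nearly all double-called barcodes held chains of both lineages. At least 1 counted chain in each table was present in 363 of 373 (97.3%) 564Igi and 313 of 345 (90.7%) WT double-called barcodes. All 4 kinds of chain (heavy, light, alpha and beta) were present in 213 (57.1%, 51.9 to 62.2) and 173 (50.1%, 44.7 to 55.5). Exactly 1 chain of each kind was found in 147 (39.4%) and 115 (33.3%). No double-called barcode lacked chains of both tables, 4 in 564Igi and 6 in WT lacked a B cell chain, and 6 and 26 lacked a T cell chain. The calls were made from the same contigs, so the presence of both lineages follows from how the barcodes were chosen and is given as a description. Gamma or delta chain contigs, which mark another class of T cell, were found in the T cell tables in 0 of 373 and 0 of 345 double-called barcodes, which allows up to 0.804% and 0.870%. In the B cell tables such contigs were found in 2 of 373 564Igi and 2 of 345 WT double-called barcodes, and in 15 of 3827 and 20 of 6513 B-only ones.

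Paired alpha and beta chains were about as frequent beside a complete B cell receptor as beside an incomplete one. Among 564Igi double-called barcodes, paired alpha and beta chains were found in 71.2% (65.7 to 76.3) of the 299 with paired heavy and light chains and in 74.3% (62.8 to 83.8) of the 74 others. Among WT ones the shares were 68.4% (62.3 to 74.1) of 253 and 68.5% (58.0 to 77.8) of 92. Within the 564Igi others, the pair was found in 30 of 36 with a heavy chain alone (83.3%, 67.2 to 93.6). It was found in 21 of 34 with a light chain alone (61.8%, 43.6 to 77.8) and in 4 of 4 with neither. In WT it was found in 0 of 1, 57 of 85 (67.1%, 56.0 to 76.9) and 6 of 6. Over barcodes with chains of both lineages, B and T cell receptor UMIs had a Spearman coefficient of -0.0187 over 363 barcodes in 564Igi and -0.00691 over 313 in WT. These coefficients describe barcodes of 1 library pair each, not independent samples. Extra chains of both lineages were found in the same barcode in 5 of 373 (1.34%) in 564Igi and 3 of 345 (0.870%) in WT. In 564Igi an extra T cell chain was found in 17.9% (6.06 to 36.9) of the 28 with an extra B cell chain and 20.3% (16.2 to 24.9) of the others. In WT the shares were 6.12% (1.28 to 16.9) of 49 and 15.2% (11.3 to 19.8), and the intervals overlapped in both mice.

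**Figure D1:**
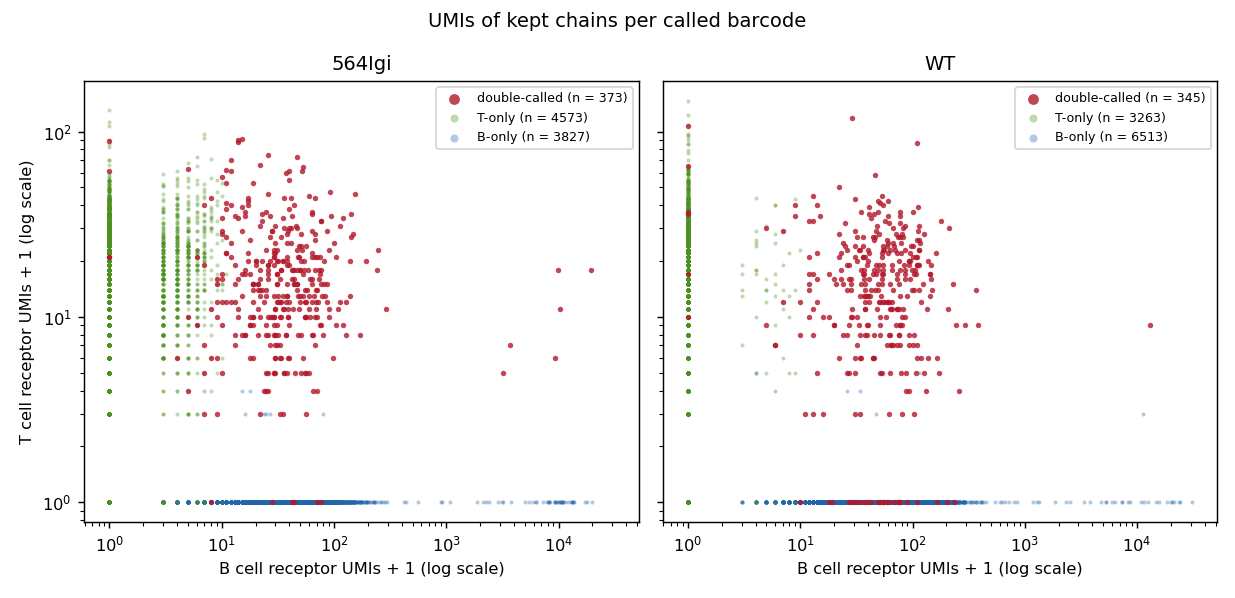
UMIs of counted B cell receptor chains (x axis) against T cell receptor chains (y axis), each plus 1 and on log scales, for every called barcode of 564Igi (left) and WT (right); red points are double-called, green T-only and blue B-only barcodes. Red points fill the area between the blue and green bands, and in 564Igi the green points reach up to 10 B cell receptor UMIs.

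At the heavy, kappa, alpha and beta loci, median UMIs of double-called barcodes were equal to or below those of single-called ones. The ratios of medians ran from 0.8, for WT alpha chains, to 1. Both classes had the cell call of the same table, made from the same contigs. Similar depth thus follows in part from the class and is given as a description. Heavy chains had a median of 17 UMIs (16 to 18) in 564Igi double-called barcodes and 18 (17 to 18) in B-only ones, and 15 (14 to 17) in WT double-called and 15 (15 to 15) in WT B-only barcodes. Kappa chains, the more common light chain of the mouse, had a median of 18 UMIs (16 to 20) in 564Igi double-called barcodes and 18 (18 to 19) in B-only ones. In WT the kappa medians were 38 UMIs (34 to 42) in double-called and 43 (42 to 44) in B-only barcodes, intervals that meet at 42. Alpha chain medians were 5 UMIs (4 to 6) in 564Igi double-called and 5 (5 to 5) in T-only barcodes, and 4 (4 to 5) in WT double-called and 5 (5 to 5) in WT T-only barcodes. Beta chain medians were 10 UMIs (9 to 12) and 11 (10 to 11) in 564Igi, and 11 (9 to 12) and 11 (11 to 11) in WT. At the heavy, kappa, alpha and beta loci, between 87.9% and 94.4% of double-called barcodes lay inside the central 90% range of single-called ones.

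**Figure D2:**
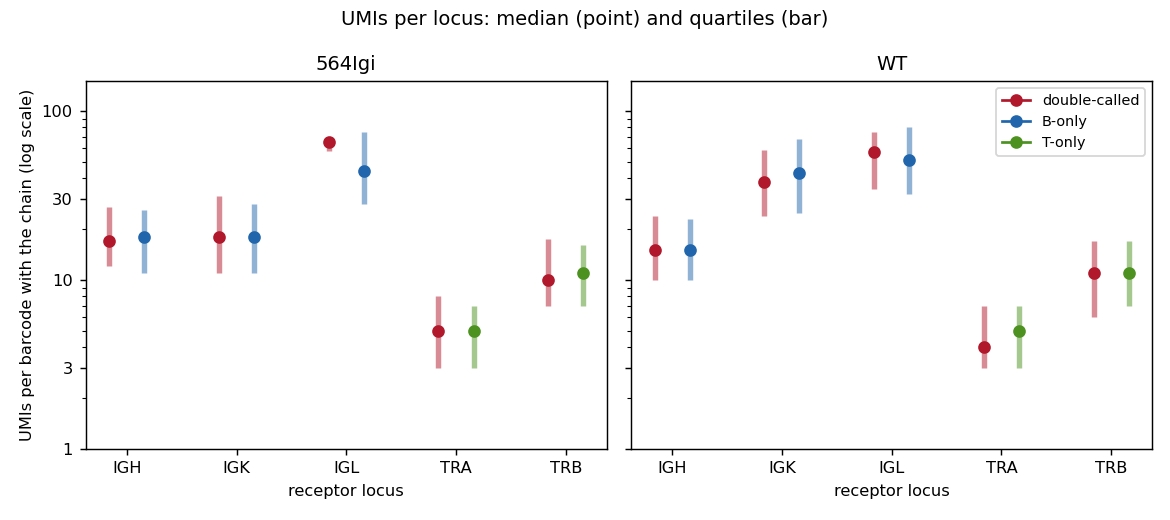
UMIs per barcode at each receptor locus on a log scale, in 564Igi (left) and WT (right), with the median as a point and the quartiles as a bar; double-called barcodes are red, B-only blue and T-only green. Each red point sits beside its single-called counterpart, the widest gap being that of lambda chains (IGL) in 564Igi, which rests on 5 double-called barcodes.

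Counted chains of the other lineage were rare and shallow in single-called barcodes, except for the heavy chain in 564Igi. Single-called barcodes lacked the cell call of the other table, which was made from the same contigs. Few and shallow chains of that lineage thus follow in part from the class and are given as a description. Contigs of any kind were not rare in 1 direction: T-only barcodes had a contig in the B cell table in 55.4% of 4573 in 564Igi and 35.8% of 3263 in WT, whereas B-only barcodes had one in the T cell table in 3.16% and 2.69%. Counted beta chains were found in 7 of 3827 564Igi and 6 of 6513 WT B-only barcodes, at medians of 2 and 3 UMIs. Counted light chains were found in 38 of 4573 564Igi T-only barcodes at a median of 2 UMIs, and in 45 of 3263 WT T-only barcodes at a median of 5. In 564Igi a heavy chain was counted in 647 of 4573 T-only barcodes (14.1%), at a median of 3 and at most 10 UMIs, and 640 of these were the candidate heavy chain. In WT, 2 of 3263 T-only barcodes had a heavy chain, and 1 of these 2 was the candidate heavy chain.

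Chain completeness differed from that of single-called barcodes in 564Igi, whereas in WT the intervals of the differences included 0. In WT, paired heavy and light chains were found in 73.3% of double-called and 73.3% of B-only barcodes, a difference of 0.0491 points (-5.06 to 4.77). Thinned to 10 B cell receptor UMIs, that difference was 5.17 points (-0.119 to 10.0). Paired alpha and beta chains were found in 68.4% of WT double-called and 67.9% of T-only barcodes, a difference of 0.462 points (-4.97 to 5.60). No alpha or beta chain was found in 7.54% and 5.09%, a difference of 2.45 points (-0.231 to 5.84), which at a UMI minimum of 5 was 4.92 points (0.636 to 9.69). In 564Igi, paired heavy and light chains were found in 80.2% of double-called and 86.8% of B-only barcodes, a difference of -6.64 points (-11.2 to -2.56). The gap lay in the light chain, present in 89.3% of 564Igi double-called and 95.3% of B-only barcodes, a difference of -6.07 points (-9.72 to -3.04). Heavy chains were present in 89.8% and 90.7%, a difference of -0.885 points (-4.53 to 2.15). On the T cell side, a beta chain was present in 95.2% of 564Igi double-called and 91.1% of T-only barcodes, a difference of 4.07 points (1.26 to 6.20). No alpha or beta chain was found in 1.61% and 4.94%, a difference of -3.33 points (-4.55 to -1.38). At a UMI minimum of 5 these 2 differences were 3.20 points (-1.17 to 7.08) and -2.76 points (-6.20 to 1.24), intervals that included 0. That beta chain difference was 0.818 points (-1.38 to 2.17) when every barcode was thinned to 5 T cell receptor UMIs, which leaves out shallower barcodes and kept 339 of 373 double-called and 4059 of 4573 T-only ones.

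**Figure D3:**
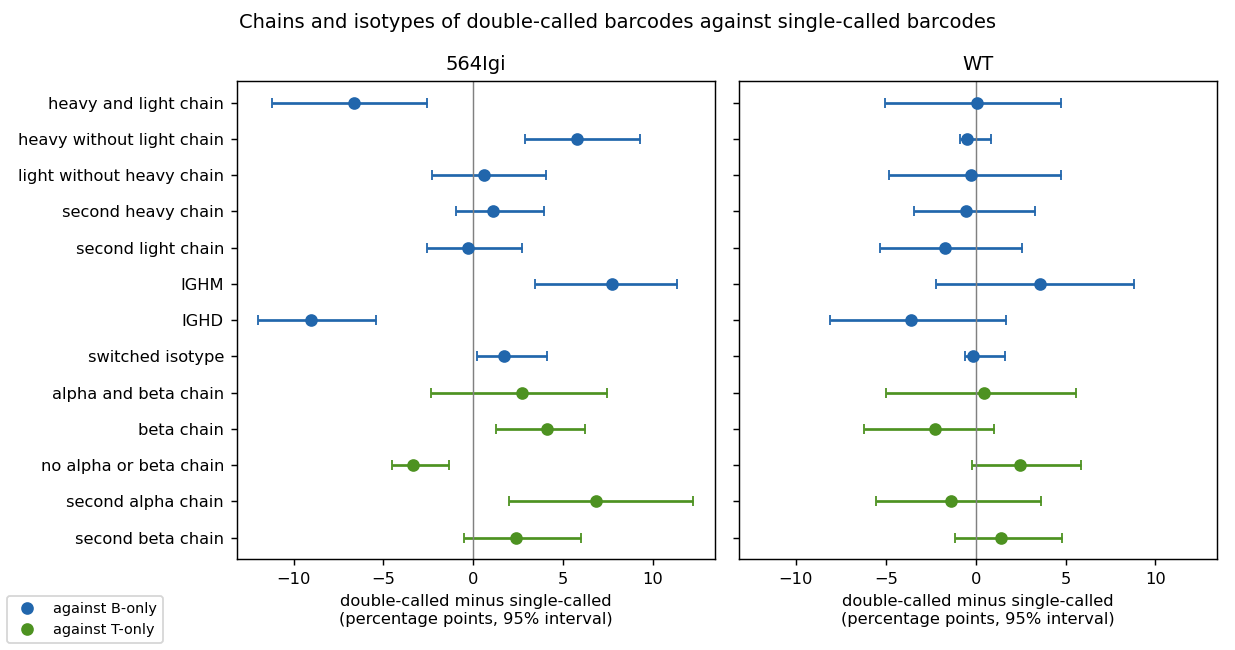
Differences in percentage points between double-called and single-called barcodes of 564Igi (left) and WT (right), with 95% intervals, for B cell receptor measures against B-only (blue) and T cell receptor measures against T-only barcodes (green). In 564Igi the intervals of 8 of the 13 measures lie clear of 0, and in WT all 13 include 0.

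The missing light chains in 564Igi belonged to barcodes with the candidate heavy chain. A heavy chain without a light chain was found in 36 of 373 double-called barcodes (9.65%, 6.85 to 13.1) and in 149 of 3827 B-only barcodes (3.89%, 3.30 to 4.56), a difference of 5.76 points (2.88 to 9.27). In WT the counts were 1 of 345 (0.290%) and 51 of 6513 (0.783%). The candidate heavy chain was the primary one in 34 of the 36. Among 564Igi barcodes with the candidate heavy chain, 82.9% of 199 double-called and 93.1% of 1830 B-only ones had a light chain, a difference of -10.2 points (-16.3 to -5.09). Among barcodes with another heavy chain, 98.5% of 136 double-called and 98.6% of 1641 B-only ones had a light chain.

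The 36 barcodes held more T cell receptor UMIs than 564Igi double-called barcodes with heavy and light chains. Their median was 28 T cell receptor UMIs (18 to 41), against 14 (12 to 15) in the 299 with heavy and light chains. The 34 double-called barcodes with a light chain alone had a median of 11 (7 to 19). Those with no counted B cell chain had a median of 40 over 4 barcodes in 564Igi and 35.5 over 6 in WT. T-only barcodes with a heavy chain alone had a median of 17 (16 to 18), and T-only barcodes with no counted immunoglobulin chain 13 (13 to 14). All 36 had a beta chain and 30 had alpha and beta chains, which differed from the 299 by 5.69 points (-4.33 to 8.95) and 12.1 points (-4.82 to 23.8), intervals that include 0. The candidate heavy chain of the 34 had a median of 11 UMIs and a range of 4 to 36. It had over 10 UMIs in 19 of the 34 double-called barcodes and in 85 of the 126 B-only barcodes with the same pattern. Of the 635 such T-only barcodes 0 had, which allows up to 0.472%. T-only barcodes lacked a B cell call, which rests on the same contigs, and held at most 10 counted B cell receptor UMIs. That count of 0 thus follows from the class and is given as a description. Any light chain contig, counted or not, was present in 10 of the 36 double-called barcodes (27.8%, 14.2 to 45.2), in 82 of 149 B-only (55.0%, 46.7 to 63.2) and in 59 of 642 T-only barcodes with a heavy chain alone (9.19%, 7.07 to 11.7). The constant gene of the heavy chain was that of IgD in 0 of the 36, which allows up to 8.33%, in 18 of the 149 B-only barcodes (12.1%) and in 4 of the 642 T-only barcodes (0.623%). On UMIs of the heavy chain these 36 barcodes lay near the B-only ones, which like them had a B cell call. On light chain contigs they lay between B-only and T-only barcodes, and on IgD below the B-only ones (difference -12.1 points, -18.4 to -1.24). The part that RNA from outside the cell played in these heavy chains was not tested.

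**Figure D4:**
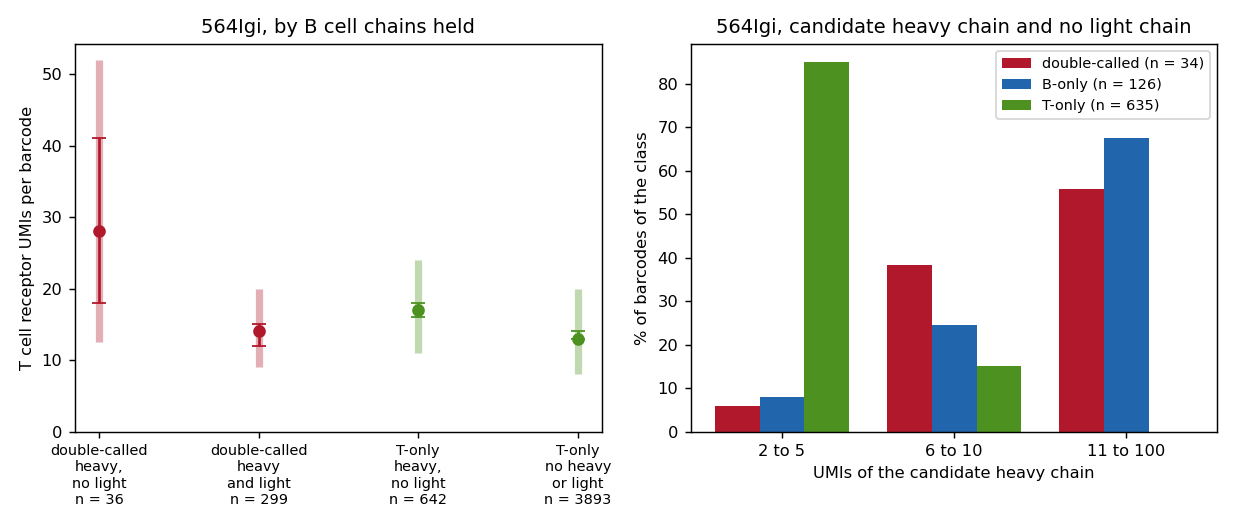
T cell receptor UMIs of 564Igi barcodes by class and by the B cell chains held (left; point, median with its 95% interval; broad bar, quartiles), and UMIs of the candidate heavy chain in barcodes that hold it with no light chain (right; bars, percent of each class). Double-called barcodes with a heavy chain alone had the highest median of the 4 groups on the left, 28 UMIs, and 19 of 34 had over 10 heavy chain UMIs on the right. Other groups, such as the 4 double-called barcodes with no counted B cell chain (median 40), are not shown.

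The candidate knock-in chains were each primary in most 564Igi double-called barcodes that had a heavy or a light chain. They were chosen as the most common chains of B-only barcodes, so their lead there follows from the choice. Of 335 double-called barcodes with a heavy chain, 199 had the candidate as the primary one (59.4%, 53.9 to 64.7), as did 52.7% (51.0 to 54.4) of 3471 B-only barcodes, a difference of 6.68 points (0.959 to 12.2). Among barcodes that also had a light chain, the shares were 55.2% of 299 and 51.3% of 3322, and the difference of 3.89 points (-2.19 to 9.87) included 0. The candidate light chain was primary in 303 of 333 (91.0%, 87.4 to 93.8) double-called and 90.1% (89.1 to 91.1) of 3649 B-only barcodes. Both candidates together were found in 54.8% of paired double-called and 49.9% of paired B-only barcodes, and the candidate light chain with another heavy chain in 36.5% and 40.5%. Neither candidate was found in 8.36% and 8.16%. In WT, neither candidate was primary in any of the 254 double-called barcodes with a heavy chain or the 338 with a light chain, which allows up to 1.18% and 0.888%.

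IgD was named less often in 564Igi double-called than in B-only barcodes. Naive B cells make IgM and IgD from the same rearranged heavy chain by alternative processing of 1 long transcript, and the tables name 1 constant gene per contig. The IgD gene (IGHD, chr12:113407535-113416324) was named on the primary heavy chain of 26 of 335 564Igi double-called barcodes (7.76%, 5.13 to 11.2) and of 583 of 3471 B-only barcodes (16.8%, 15.6 to 18.1). The difference was -9.04 points (-11.96 to -5.42). The IgM gene (IGHM, chr12:113418826-113422730) was named on 87.5% and 79.8%, higher in double-called barcodes by 7.69 points (3.45 to 11.3). In WT, IGHD was named on 16.5% of 254 double-called and 20.1% of 4824 B-only barcodes, a difference of -3.59 points (-8.10 to 1.68), and IGHM on 76.8% and 73.2%. The difference between the mice in the IGHD gap was -5.44 points (-11.5 to 0.335) and included 0.

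The IGHD gap in 564Igi was present among barcodes with paired heavy and light chains. With the candidate heavy chain, IGHD was named on 16 of 165 paired double-called barcodes (9.70%, 5.64 to 15.3) and on 381 of 1704 paired B-only barcodes (22.4%, 20.4 to 24.4). The difference was -12.7 points (-17.2 to -6.76), and the heavy chain had a median of 19 UMIs in both classes. Among paired barcodes with another heavy chain, IGHD was named on 10 of 134 double-called (7.46%) and 184 of 1618 B-only (11.4%) barcodes, a difference of -3.91 points (-8.08 to 2.12). Whether the gap differed between candidate and other heavy chains was not tested. Among the heavy chains of T-only barcodes, IGHD was named on 4 of 647 (0.618%), and the part of such chains in the gap was not tested.

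Switched isotypes were few. In 564Igi they were named on 9 of 335 double-called (2.69%, 1.24 to 5.04) and 34 of 3471 B-only barcodes (0.980%, 0.679 to 1.37), a difference of 1.71 points (0.206 to 4.08). Of the 9, IgA (IGHA) was named on 3, IGHG2B, an IgG gene like the next 2, on 3, IGHG3 on 2 and IGHG2C on 1. In WT, 1 of 254 double-called barcodes (0.394%), an IgA, and 26 of 4824 B-only barcodes (0.539%) were switched. The 3 IgA heavy chains of 564Igi had 9140, 5559 and 5341 UMIs and the WT one had 4696, whereas the 6 IgG heavy chains had 11 to 26. Barcodes with at least 1000 B cell receptor UMIs, a level typical of antibody-secreting cells, numbered 6 of 373 (1.61%, 0.593 to 3.47) among 564Igi double-called and 45 of 3827 (1.18%, 0.859 to 1.57) among B-only barcodes. In WT they numbered 1 of 345 (0.290%) and 30 of 6513 (0.461%). The 7 such double-called barcodes had 4 to 17 T cell receptor UMIs, and none had the candidate heavy chain. Without all barcodes of that depth the 564Igi difference in switching was 0.948 points (-0.262 to 3.07).

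Further productive chains of the same kind but another CDR3 were as frequent as in single-called barcodes at most loci. In 564Igi a further heavy chain was found in 4.48% of double-called and 3.40% of B-only barcodes, and a further light chain in 5.11% and 5.43%. In WT the heavy chain shares were 6.69% and 7.26% and the light chain shares 13.9% and 15.6%. Each of these 4 differences had an interval that included 0. Alpha chains in 564Igi differed, with a further one in 60 of 280 double-called barcodes (21.4%, 16.8 to 26.7) and in 14.6% (13.4 to 15.8) of 3343 T-only barcodes, a difference of 6.83 points (2.01 to 12.2). In WT the alpha shares were 12.9% and 14.2%, a difference of -1.39 points (-5.55 to 3.62). Beta chains, the more strictly excluded of the pair, had a further chain in 9.30% and 6.91% in 564Igi and in 6.21% and 4.82% in WT, and both intervals of the difference included 0.

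The alpha excess was present in 564Igi double-called barcodes with paired heavy and light chains, where 48 of 225 (21.3%) had a further alpha chain. T-only barcodes with no immunoglobulin chain had one in 13.8% of 2794, a difference of 7.55 points (2.22 to 13.6). T-only barcodes with a heavy chain alone lay between, at 18.8% of 516. Thinned to 5 UMIs, the difference between double-called and T-only barcodes was 5.12 points (0.719 to 10.4). At a UMI minimum of 5 it was 5.05 points, with an interval of -0.386 to 12.1 that included 0. Lambda light chains were primary in 1.502% of 564Igi double-called and 2.41% of B-only barcodes, and in 10.1% and 7.97% in WT, with intervals of the difference that included 0.

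V and J gene use had intervals that did not overlap those of single-called barcodes for 3 genes, all in WT. Genes were tested when used by at least 5 double-called or 20 single-called barcodes. A gene was called when the exact intervals of the 2 classes did not overlap. That rule is stricter than the interval of the difference used for the other measures. The difference interval excluded 0 in 564Igi for 1 of 32 IGHV, 2 of 41 TRAJ, 1 of 60 TRAV and 1 of 22 TRBV genes. In WT it excluded 0 for 1 of 4 IGHJ, 1 of 61 IGHV and 5 of 64 IGKV genes. It also did so in WT for 2 of 40 TRAJ, 2 of 47 TRAV and 2 of 21 TRBV genes. In 564Igi no gene was called in any segment, among 42 B cell and 135 T cell receptor genes tested. In WT, 1 of 61 IGHV genes was called higher, 1.64% of those tested. Of 21 TRBV genes 1 was called higher, 4.76%, and 1 lower, 4.76%. No IGHJ, IGKV, IGKJ, TRAV, TRAJ or TRBJ gene was called. Over all segments and both mice, the share called was 0.571% higher and 0% lower of 175 B cell receptor genes, and 0.392% higher and 0.392% lower of 255 T cell receptor genes. IGHV7-1 (chr12:113896408-113896946) was used by 7 of 254 WT double-called (2.76%, 1.12 to 5.60) and 12 of 4824 B-only barcodes (0.249%, 0.129 to 0.434). It reached the minimum number of barcodes only through the double-called ones in which it was high, so its values are a description and nothing is read from its call. TRBV2 (chr6:41047556-41047995) was used by 26 of 306 (8.50%, 5.63 to 12.2) and 4.08% (3.39 to 4.85) of 2968 T-only barcodes. TRBV5 (chr6:41062359-41062803) was used by 10 of 306 (3.27%, 1.58 to 5.93) and 7.31% (6.40 to 8.31). In 564Igi, TRBV2 was used by 3.66% of 355 double-called and 4.13% of 4166 T-only barcodes, and TRBV5 by 6.20% and 6.29%. The TRBV5 intervals in WT overlapped at a UMI minimum of 5.

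**Figure D5:**
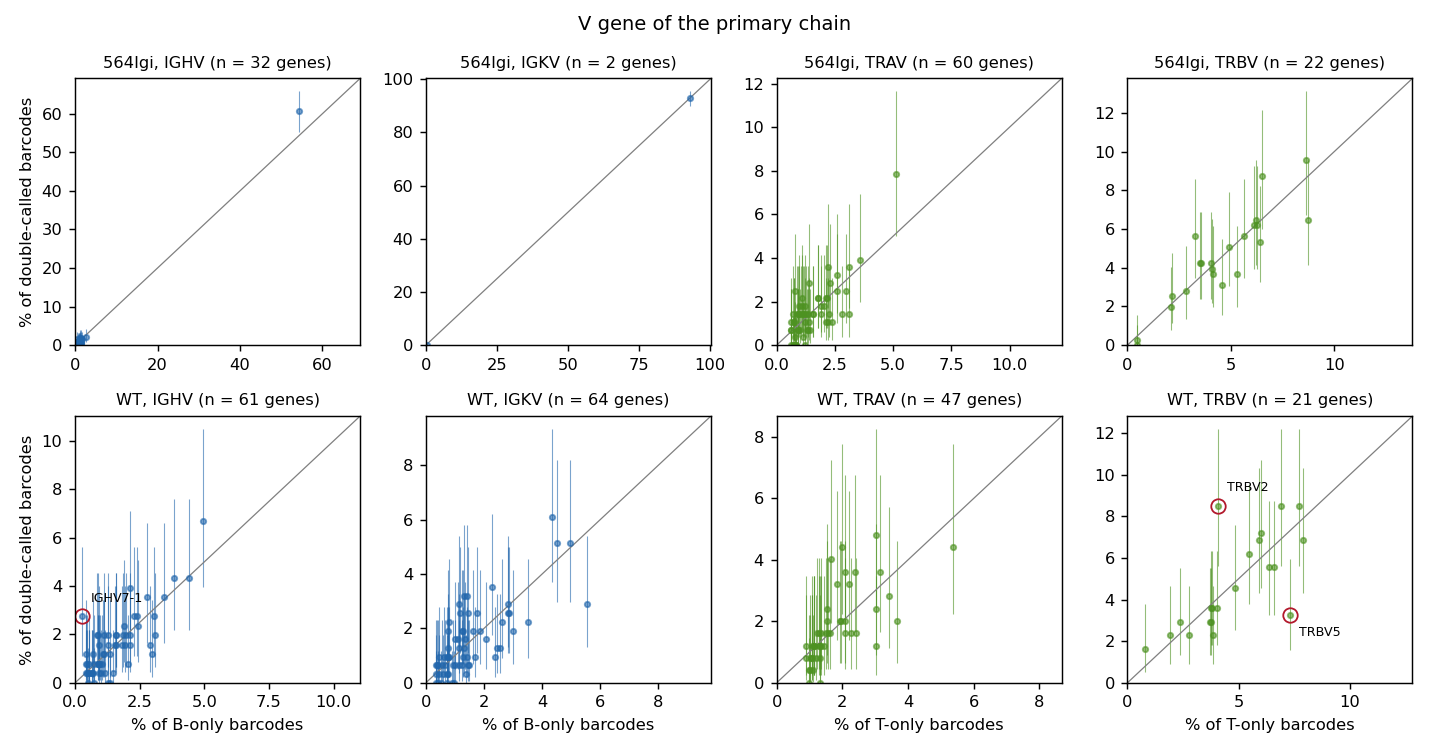
Use of each tested V gene by double-called barcodes (y axis, with exact 95% intervals) against single-called barcodes (x axis) in percent, in 564Igi (top) and WT (bottom); the grey line marks equal use and red circles mark called genes. Most genes lie along the line, and the 3 circled genes, IGHV7-1, TRBV2 and TRBV5, are in WT.

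Of the genes used by most double-called barcodes, only TRBV2 in WT was among those called. In 564Igi, IGHV1-53, the V gene of the candidate heavy chain, was used by 60.6% of double-called and 54.3% of B-only barcodes, and IGKV4-59 by 93.1% and 93.1%. In WT, IGHV1-26 led the double-called heavy chains with 6.69%, against 4.93% of B-only barcodes, and IGKV8-24 the kappa chains with 6.09%, against 4.35%. The alpha gene TRAV6-7-DV9 was used by 7.86% of double-called and 5.12% of T-only barcodes in 564Igi, and by 4.42% and 5.37% in WT. The shared TRBV12-2 and TRBV13-2 assignment, which the tables give as 1 name, was used by 9.58% and 8.64% in 564Igi and by 8.50% and 7.72% in WT. TRBJ2-7 was the most used beta J gene, with 17.7% and 19.4% in 564Igi and 21.2% and 19.4% in WT.

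Gene groups with a known role had overlapping intervals in double-called and single-called barcodes in each case. Heavy chains other than the candidate used the large IGHV1 family in 50.7% of 136 double-called and 47.1% of 1641 B-only barcodes in 564Igi, and in 59.4% and 58.5% in WT. In 564Igi these other chains were not all free of the candidate's sequence. For example, the CDR3 of an IGHV8-12 heavy chain in a double-called barcode ended in most of the candidate's CDR3. Such chains were not set apart. The IGHV5 and IGHV2 families together made 20.6% and 20.7% in 564Igi and 12.2% and 12.5% in WT. IGHJ4 was used by 60.3% and 60.0% of the heavy chains other than the candidate in 564Igi, and by 30.7% and 28.0% in WT. The kappa J genes IGKJ4 and IGKJ5, which later rearrangements reach, made 9 of 25 (36.0%) and 142 of 277 (51.3%) of the other kappa chains in 564Igi, and 41.0% and 39.2% in WT. The IGHV11-2 with IGKV14-126 pair, typical of B-1 cells, was found in 0 of 299 paired 564Igi and 1 of 253 paired WT double-called barcodes, and IGHV12-3, another B-1 cell gene, in none, which allows up to 0.896% and 1.18%. The invariant NKT alpha chain, TRAV11 with TRAJ18, was found in 5 of 280 (1.79%) double-called and 1.71% of T-only barcodes in 564Igi, and in 1 of 249 (0.402%) and 1.28% in WT. The MAIT cell alpha chain, TRAV1 with TRAJ33, was found in 0 of 280 564Igi and 0 of 249 WT double-called barcodes, which allows up to 1.07% and 1.20%. TRBV genes that can react with endogenous superantigens (TRBV12-1, TRBV12-2, TRBV16 and TRBV26, leaving out the joint TRBV12-2 and TRBV13-2 name) were used by 18.9% and 18.2% in 564Igi and by 15.0% and 17.6% in WT.

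Some double-called barcodes of a mouse carried the same receptors of both lineages. This pattern was picked after the values had been seen. In WT, 4 groups of barcodes, 9 barcodes in all (2.61% of 345), shared an identical beta CDR3 together with an identical heavy or light CDR3. In 3 of the 4 the shared B cell chain was a kappa chain found in many WT barcodes, 25 for IGKV15-103, 23 for IGKV2-109 and 51 for IGKV19-93. In the remaining group, a pair, all 4 primary chains were identical, and apart from the light chain, which 1 more barcode held, they were found in no other WT barcode.
IGHV7-1 IGHJ4: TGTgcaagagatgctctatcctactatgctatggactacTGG
IGKV12-44 IGKJ5: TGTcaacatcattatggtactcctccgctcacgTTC
TRAV4-4-DV10 TRAJ39: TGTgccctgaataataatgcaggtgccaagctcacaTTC
TRBV2 TRBJ2-1: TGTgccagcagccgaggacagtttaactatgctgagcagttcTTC
The 2 barcodes had 6 and 12 heavy chain UMIs, 47 and 29 light chain UMIs, 11 and 6 alpha chain UMIs and 7 and 6 beta chain UMIs. This pair supplied 2 of the 7 IGHV7-1 barcodes, and without all such groups IGHV7-1 was used by 1.99% of WT double-called barcodes. The largest WT group had 3 barcodes, which shared the light, alpha and beta chains.
IGKV15-103 IGKJ2: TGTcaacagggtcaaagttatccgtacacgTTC
TRAV7-2 TRAJ15: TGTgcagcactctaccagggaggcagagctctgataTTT
TRBV19 TRBJ1-4: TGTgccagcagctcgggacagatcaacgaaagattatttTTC
Their light chains had 9 to 13 UMIs, their alpha chains 2 to 5 and their beta chains 3 to 6, and 1 of them held a heavy chain. The other 2 groups were pairs that shared a kappa and a beta chain, IGKV2-109 with TRBV3 and IGKV19-93 with TRBV12-2+TRBV13-2.

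In 564Igi, 1 pair shared a beta chain with heavy and light chains other than the candidates.
IGHV6-3 IGHJ3: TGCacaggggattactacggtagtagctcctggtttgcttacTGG
IGKV14-100 IGKJ1: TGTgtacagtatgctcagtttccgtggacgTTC
TRBV29 TRBJ1-4: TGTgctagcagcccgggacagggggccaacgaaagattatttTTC
The 2 barcodes had 15 and 10 heavy chain UMIs, 41 and 48 light chain UMIs and 6 and 3 beta chain UMIs. A further 4 groups, 9 barcodes in all, shared a beta chain and only a candidate chain, which most 564Igi barcodes called in the B cell table hold. The largest of these had 3 barcodes with 1 alpha and 1 beta chain in common. Of these 3, 1 had no counted light chain and 1 had another heavy chain, so no candidate chain was primary in all 3.
TRAV6-7-DV9 TRAJ52: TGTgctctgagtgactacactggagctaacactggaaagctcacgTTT
TRBV12-1 TRBJ1-3: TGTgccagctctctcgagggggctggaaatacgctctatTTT
In all 9 groups of both mice the shared beta chain was primary in no barcode outside the group. The cell barcodes within a group differed at 10 to 16 of their 16 positions. A beta chain was shared with another double-called barcode in 11 of 355 564Igi double-called barcodes (3.10%, 1.56 to 5.48), with 354 others to share with, and with a T-only barcode in 4 of 355 (1.13%, 0.308 to 2.86), with 4166 to share with. In WT the counts were 11 of 306 (3.59%, 1.81 to 6.34), with 305 others, and 6 of 306 (1.96%, 0.723 to 4.22), with 2968. Sharing of beta chains between T-only barcodes was found in 2.14% of 4166 in 564Igi and 2.86% of 2968 in WT. Heavy chains other than the candidate were shared with any other barcode in 8.82% of 136 double-called and 4.51% of 1641 B-only barcodes in 564Igi, a difference of 4.31 points (-0.0140 to 10.5), and in 1.97% and 1.72% in WT.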

How the data were processed

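The 4 V(D)J libraries were analysed, 1 B cell and 1 T cell table per mouse. Cell Ranger 3.0.2 and the genome build mm10 are named, with no role given, per the submitters' processing notes. Per the file headers, the deposited tables list contigs with raw read and UMI counts, a cell call, a confidence flag, gene names and the CDR3. The rules behind calls and flags are not given in the sources used here.

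Groups came from the labels. Chains needed the confidence flag, the productive mark and at least 2 UMIs. Shares carry exact Clopper-Pearson 95% intervals, differences Newcombe-type intervals, medians order-statistic intervals, and counts of 0 the share 3 counts would make. Thinning drew 10 B cell or 5 T cell receptor UMIs per barcode. There were no p-values and no doublet caller. Members, gene lists and measures were chosen with earlier results of these data known. Named genes were those called (up to 5 each way per V locus, 3 per J locus), the 5 most used V and 3 most used J genes, and the lists. The calls were tested on simulated profiles. Of 281 gene names, 280 matched RefSeq GRCm38.p6. Intervals used SciPy 1.17.1 and NumPy 2.4.6, tables pandas 2.3.3 and figures matplotlib 3.10.9, under Python 3.11.15. Alternatives appear in the closing section.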

Additional observations from a re-analysis of the deposited data

Results flagged for a closer look

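The gap between double-called and single-called barcodes differed between the mice for 6 measures other than those of the candidate chains. For each, the interval for the difference of the differences (564Igi minus WT) excluded 0. The 6 were picked for this from all shares compared, most of which had intervals that included 0. These were the light chain (-5.86 points, -9.72 to -2.15), paired heavy and light chains (-6.69 points, -13.2 to -0.150), a heavy chain without a light chain (6.25 points, 3.08 to 9.78), the beta chain (6.34 points, 1.996 to 10.8), no alpha or beta chain (-5.78 points, -9.38 to -2.46) and a further alpha chain (8.22 points, 1.27 to 15.0). The first 3 overlap, since each counts the same missing light chains, and the 2 on the beta chain and on absent T cell chains share barcodes too. The candidate heavy chain, primary in no WT double-called or B-only barcode, had such a value too (6.68 points, 0.780 to 12.2). With 1 mouse per genotype the intervals cover counting error only.

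A T cell receptor contig appeared in the B cell table, outside the comparisons above, in 4.64% of 345 WT double-called barcodes and in 2.32% of 6513 WT B-only barcodes, a difference with an interval of 0.316 to 5.13 points. In 564Igi the shares were 6.97% of 373 and 7.03% of 3827.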

How the results depend on the processing

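Of 334 recomputed values, 324 stayed within the interval of the reported value or, for counts, within 1.5 times. Alternatives on light chains, shared groups and barcodes of at least 1000 UMIs were chosen after seeing the data. With at least 10 UMIs in each table, 241 564Igi and 219 WT barcodes remained, the rest being shallower. Thinning, which leaves out shallow barcodes, moved 3 differences: WT paired heavy and light chains to 5.17 points, the 564Igi beta chain to 0.818 and no alpha or beta chain to 0. The last is 0 by construction, since each barcode kept by thinning had at least 5 T cell receptor UMIs. Without the confidence flag, a further 564Igi heavy chain differed by 6.92 points (11.04% of double-called, 4.12% of B-only); the cause was not tested. A UMI minimum of 5 called 1 T cell receptor gene in 564Igi (TRAJ34, 8.15% of double-called, 2.76% of T-only) and TRAV13D-2 in WT (6.96%, 1.59%). A minimum of 1 called TRAJ38 in WT (2.43%, 0.572%). All were named after their values were seen. TRAV13D-2, with 18 T-only barcodes, and TRAJ38, with 15, reached the minimum number only through the double-called ones in which they were high. Nothing is read from those 2 calls. A minimum of 1 put WT beta sharing at -0.680 points. Without barcodes sharing receptors of both lineages, beta sharing was -0.632 points in 564Igi, reversed from 2.41, and -1.08 in WT, by construction. Allowing 2 mismatches, the candidate heavy chain differed by 5.67 points (-0.0610 to 11.3). No paired analysis was possible because each group has 1 mouse. Depth limits alpha chains most, at medians of 4 to 5 UMIs, and 718 barcodes limit rare genes.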
